A study of Mus musculus with 12 samples.

Results

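A set of 10 genes that normally work in germ cells was followed in embryonic epithelium in which Dnmt1, the gene of the maintenance DNA methyltransferase, was deleted. They are the RNA-binding protein genes Dazl and Rbmy, the Tudor-domain genes Stk31 and Rnf17, the meiotic RNA regulator Meioc, and the testis-expressed genes Tex11, Tex14, Tex15, Tex19.1 and Tex101. The 10 were taken by name from a deposited table of 20308 gene symbols. Under their own symbols 9 had a row, and Meioc was found under Gm1564, an older symbol that RefSeq lists for it. Polyadenylated RNA was sequenced from urogenital sinus epithelium of C57BL/6J mice at embryonic day 15.5. This lining was freed from its stroma with trypsin, and it later contributes to the urethra and the prostate. In the 8 Dnmt1cKO libraries a Shh cre driver had removed Dnmt1, in this epithelium and in any other cells that express Shh, and the 4 Control libraries were wildtype. Tissue of several embryos was pooled into each lysate, and whether every library came from a separate pool is not stated, so the spread behind each p-value may be partly technical.

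In mammals, germ cell genes of this kind are active in the testis, the ovary or both, and many of them carry methylated, silent promoters in the cells of the body. DNA methyltransferase 1 copies methylation from the old to the new DNA strand at each cell division, and cells that lack it lose methylation as they divide. Several of these proteins act on RNA: DAZL binds messenger RNAs and controls their translation, RBMY is a nuclear RNA-binding protein from the Y chromosome, and MEIOC acts with the RNA helicase YTHDC2 to keep meiosis running. STK31 and RNF17 carry Tudor domains, which bind methylated arginine in partner proteins of germ cell RNA granules.

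DNA methylation sits on CG dinucleotides, so the promoters of the called genes that have a RefSeq entry are shown with each CG in capitals. Each window is 300 bases of build GRCm38.p6, 250 bases before to 50 bases after the transcription start, written 5′ to 3′ on the strand of the gene. The windows lie at chr17:50293571-50293870 on the minus strand for Dazl, chr11:121145893-121146192 on the plus strand for Tex19.1, chr6:49395354-49395653 on the plus strand for Stk31 and chrY:2830430-2830729 on the plus strand for Rbmy.
Dazl: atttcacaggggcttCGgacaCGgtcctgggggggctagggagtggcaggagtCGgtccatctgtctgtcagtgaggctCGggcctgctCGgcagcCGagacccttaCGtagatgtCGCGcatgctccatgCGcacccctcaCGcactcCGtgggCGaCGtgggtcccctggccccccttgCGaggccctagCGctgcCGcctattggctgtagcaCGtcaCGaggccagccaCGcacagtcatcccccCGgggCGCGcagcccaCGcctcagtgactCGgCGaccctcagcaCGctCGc
Tex19.1: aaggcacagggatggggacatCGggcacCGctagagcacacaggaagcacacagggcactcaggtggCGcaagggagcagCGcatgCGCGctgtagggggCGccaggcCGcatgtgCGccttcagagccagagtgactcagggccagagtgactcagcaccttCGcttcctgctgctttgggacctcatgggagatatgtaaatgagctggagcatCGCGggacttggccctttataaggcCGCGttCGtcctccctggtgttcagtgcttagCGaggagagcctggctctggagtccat
Stk31: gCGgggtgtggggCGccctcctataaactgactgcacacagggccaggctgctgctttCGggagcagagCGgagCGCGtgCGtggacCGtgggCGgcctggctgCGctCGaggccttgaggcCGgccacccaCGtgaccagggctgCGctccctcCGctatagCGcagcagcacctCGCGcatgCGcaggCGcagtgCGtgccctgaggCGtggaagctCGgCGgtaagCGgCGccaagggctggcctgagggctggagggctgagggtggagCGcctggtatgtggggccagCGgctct
Rbmy: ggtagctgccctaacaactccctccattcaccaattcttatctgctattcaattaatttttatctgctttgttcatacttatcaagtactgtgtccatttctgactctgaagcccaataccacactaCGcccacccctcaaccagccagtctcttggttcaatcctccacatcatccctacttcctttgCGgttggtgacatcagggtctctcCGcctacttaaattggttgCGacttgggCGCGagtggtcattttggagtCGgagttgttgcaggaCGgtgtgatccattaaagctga

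These windows held 28 CG dinucleotides for Dazl, 16 for Tex19.1, 28 for Stk31 and 8 for Rbmy. Of the 10 genes, 7 matched a RefSeq window, and the other 3 of those windows held 28 for Meioc, 20 for Tex14 and 19 for Tex101, while Rnf17, Tex11 and Tex15 are named only. Over all 32851 promoter windows the median was 7, over the 13031 windows of genes tested it was 20, and over the 108 windows of genes called higher it was 8.5. The share of all windows with fewer CG dinucleotides was 85.8% for Dazl, Meioc and Stk31, 67.0% for Tex19.1 and 51.4% for Rbmy, so the set was not uniform in CG content. CACGTG, an E-box whose letters read the same on both strands, stood once in the Stk31 window and in 7.15% of all windows. TCCCGC, the core of E2F sites, was searched on both strands and stood once each in the windows of Tex19.1, Meioc and Tex14 and in 20.0% of all windows. In the Tex19.1 window this match began 33 bases before the start. No window of the 7 genes held both motifs, against 1.99% of all windows.

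**Figure D1:**
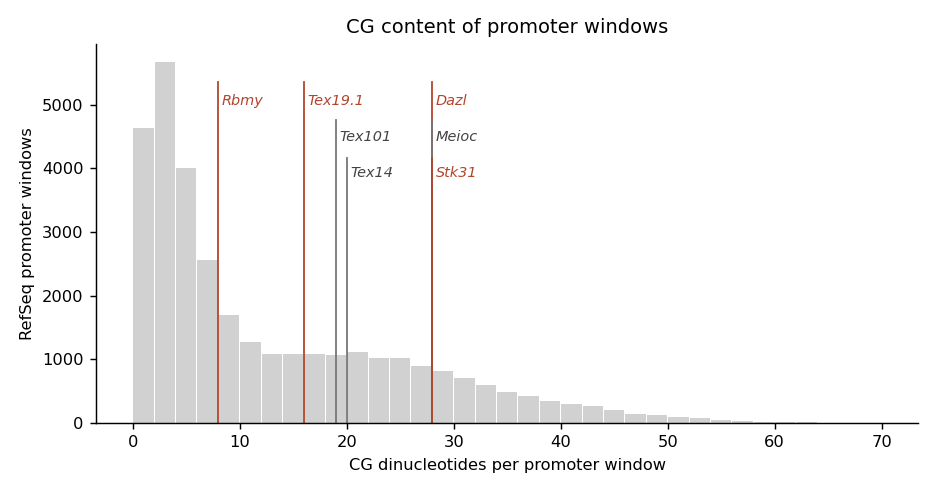
Number of RefSeq promoter windows (y axis) by their count of CG dinucleotides (x axis), in grey; vertical lines mark the windows of 7 of the genes, red where the gene was called higher and grey where it was not called or not tested, with the lower of both counts for Stk31. Rbmy lies near the many windows poor in CG with 8, and Dazl, Stk31 and Meioc share a count of 28.

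Depth was uneven, with 4007533 to 11970907 expected counts in the Dnmt1cKO libraries and 543591 to 7577706 in the Control libraries. A single count stood for 0.0730 to 0.285 CPM (counts scaled to 1e+06 counts of effective library size) in Dnmt1cKO and for 0.123 to 2.84 CPM in Control, and 3 counts, the floor used for a gene at 0, stood for 8.53 CPM in the library labelled Control 4. Dnmt1 itself stood at 22.8 to 97.0 CPM in Dnmt1cKO, and at 164, 114, 237 and 2.84 CPM in Control 1 to 4, with the last value, a single count, against its label. Its log2 fold change of -1.29 ± 0.63 (SE) was not called (edgeR, adjusted p = 0.284), and whether the counted exons include the deleted part is not stated. Of the 12761 genes tested, 48.9% had at most 3 counts in Control 3 and 72.5% in the library labelled Control 4, against 2.09% to 28.2% in the Dnmt1cKO libraries. The summed level of 13 epithelial markers was 4714 to 7487 CPM in Dnmt1cKO and 3776 to 22524 CPM in Control, and that of 13 stromal markers 530.2 to 6857 CPM and 1302 to 10652 CPM, with 0 genes of either list called in edgeR. At an unadjusted p under 0.05, 0 were higher and 2 lower among the epithelial genes and 0 higher and 5 lower among the stromal genes. Of all genes tested, 8.19% were higher and 9.54% lower at that threshold. DESeq2 called 2 lower in each list, and limma-voom 0 and 1, where 8.07% and 0.243% of all genes were called lower. In bulk tissue, fewer cells that express a gene and less RNA per cell cannot be told apart.

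Of the 10 genes, 9 passed the filter on low counts and 5 of these rose in Dnmt1cKO, Dazl, Rbmy, Stk31, Tex11 and Tex19.1 at an adjusted p under 0.05 over all genes in edgeR. Among all genes tested, 1.03% were called higher and 1.55% lower. Of the 10, 0 fell in edgeR; 8 were higher and 0 lower when p was left unadjusted, where 8.19% and 9.54% of all genes stood. DESeq2 called 7 higher, Rnf17 and Tex101 in addition, and 0 lower, with 3.82% and 8.07% of all genes, and limma-voom called 2 higher, Dazl and Tex19.1, and 0 lower, with 0.0627% and 0.243% of all genes. For the same 5 genes as in edgeR every Dnmt1cKO library lay above every Control library, a pattern found in 2.59% of the genes tested, and for 0 of the 10 every one lay below, against 0.486%. For Stk31 the pattern rests on 2 counts in Dnmt1cKO 8, or 0.570 CPM. A single count stands for more in Control 3 (0.754 CPM) and in the library labelled Control 4 (2.84 CPM), so their zeros cannot be placed below it. The median log2 fold change of the 9 was 6.65, the fitted value of Meioc, against 0.22 over all genes tested. Meioc was not called and had no count in Control, so this median is not a measured size of the rise. A gene seen in Dnmt1cKO alone passes the filter through that group, so neither the count nor the median over these 9 can stand for all 10. Without Control 3 and the library labelled Control 4, the libraries with the fewest genes detected, 3 of the 10 were called, Dazl, Rbmy and Tex19.1, and 0 were called lower, where 0.322% of all genes were called higher and 0.0143% lower. The stromal sums overlap between the groups and their part in these results was not tested.

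**Figure D2:**
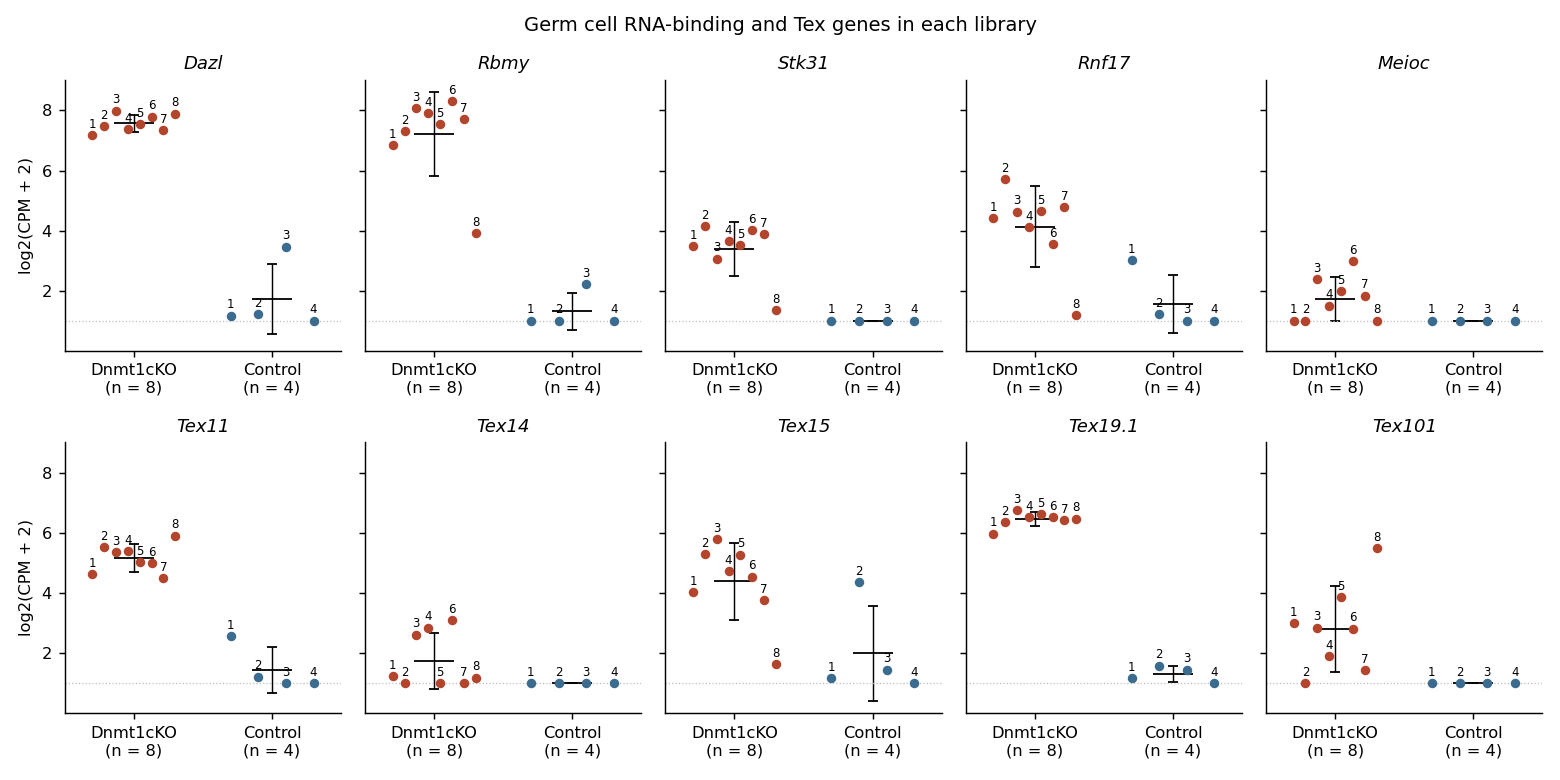
Level of each gene as log2(CPM + 2) (y axis) in the 8 Dnmt1cKO and 4 Control libraries (x axis); numbers are replicates, black bars are means with SD, and the dotted line is a count of 0. Dazl and Tex19.1 form tight groups in Dnmt1cKO, while Rbmy, Stk31, Rnf17 and Tex15 have Dnmt1cKO 8 as their lowest library.

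Dazl is needed for germ cells to enter and complete their development (chromosome 17, 50279395 to 50293636, minus strand). It stood at 144 CPM at the lowest, 180 CPM at the median and 253 CPM at the highest in the 8 Dnmt1cKO libraries, against 0.246, 0.337, 9.05 and 0 CPM in Control 1 to 4. All Dnmt1cKO libraries were high and all Control libraries low, with Control 3 standing above the other Controls on 12 counts. Its mean was 192 ± 39.2 CPM in Dnmt1cKO and 2.41 ± 4.43 CPM in Control (SD, n = 8 and 4), and edgeR gave a log2 fold change of 6.40 ± 0.89 (SE; adjusted p = 4.04e-05). The ratio was 84.4-fold with all libraries, 690.2-fold without Control 3 and 55.7-fold without Control 1. The value without Control 3 rests on 2 counts in Control 1 and 1 count in Control 2. Between Dnmt1cKO libraries the SD of Dazl was 20.4% of the mean. The median over all genes tested was 51.8%, but it covers genes of every level, and no comparison with genes at the level of Dazl was made.

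Rbmy lies on the Y chromosome (2830680 to 2841854, plus strand) where it overlaps the annotated gene Gm10256, and exists in several near-identical copies. Its row stood at 13.2 CPM at the lowest, 197 CPM at the median and 318 CPM at the highest in Dnmt1cKO, against 0, 0, 2.68 and 0 CPM in Control 1 to 4. All Dnmt1cKO libraries lay above all Controls, and Dnmt1cKO 8 was far below the other 7, which began at 113 CPM. It had a log2 fold change of 8.48 ± 1.16 (SE; edgeR, adjusted p = 4.04e-05), from 188 ± 95.3 CPM in Dnmt1cKO and 0.671 ± 1.34 CPM in Control (SD, n = 8 and 4). The fitted value was 13.5 without Control 3, the only Control with a count in this row. No Control count was left in that fit, so 13.5 is not a measured size. The log2 fold change was 7.84 without Control 2 and 7.48 without Control 1, and Rbmy stayed called in each case.

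Reads of Rbmy cannot be assigned to a copy with certainty, because the authors' software divided them between 4 rows of the table that RefSeq names or lists as Rbmy copies, Rbmy, Gm21677, Gm21708 and Gm3376. In Dnmt1cKO 8 the Rbmy row held 46.3 counts, 5.18% of the 894 counts of the 4 rows, and Gm21708 held 847. In the other 7 Dnmt1cKO libraries the Rbmy row held 35.9% to 60.8% of the copies. Gm21708 held no count in Dnmt1cKO 3, 4, 6 and 7, and 1055 counts in Dnmt1cKO 2. Summed over the 4 rows, the level was 255.0 to 568.5 CPM in Dnmt1cKO with an SD of 24.5% of the mean, against 50.7% for the Rbmy row alone, and 0.0922, 0, 4.06 and 0 CPM in Control 1 to 4. The total of the copies was thus steadier between libraries than any single row, which had SDs of 50.7% to 160% of their means. When the 4 rows were summed before the fit, a choice made after seeing their values, edgeR gave 9.17 as the log2 fold change (adjusted p = 9.93e-09).

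Of 6 other Y-linked genes compared library by library, Ddx3y and Eif2s3y had a count in every library, while Kdm5d, Uty, Usp9y and Uba1y each had none in at least 1 library. The further Y-linked genes Zfy1 and Sry had no count in any library. Ddx3y, a Y-linked RNA helicase gene of male cells, stood at 78.4 to 212 CPM in Dnmt1cKO and at 186, 188, 76.2 and 179 CPM in Control 1 to 4, and its log2 fold change of -0.19, which turned to 0.04 with library totals as the only scaling, was not called (edgeR, Benjamini-Hochberg adjusted p = 0.874). Usp9y, a Y-linked deubiquitinase gene, was the only one of the 5 sex-linked genes tested that was called: it stood at 1.14 to 46.0 CPM in Dnmt1cKO and had no count in Control, which makes it at least 57.0-fold higher (20.7 without Control 1; edgeR, adjusted p = 0.0163). Without the library labelled Control 4 its adjusted p in edgeR was 0.0515. Uba1y, a Y-linked gene for a ubiquitin-activating enzyme that is in none of the lists, stood at 9.59 to 61.2 CPM in Dnmt1cKO, against 1.04, 0.337, 0.769 and 0 CPM in Control 1 to 4. The groups did not overlap, and Dnmt1cKO 2 was highest. It had a log2 fold change of 5.04 in edgeR (adjusted p = 0.0293), and its call was lost without the library labelled Control 4 and without Dnmt1cKO 1, 3, 5 or 7 (0.0530 to 0.0640).

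**Figure D3:**
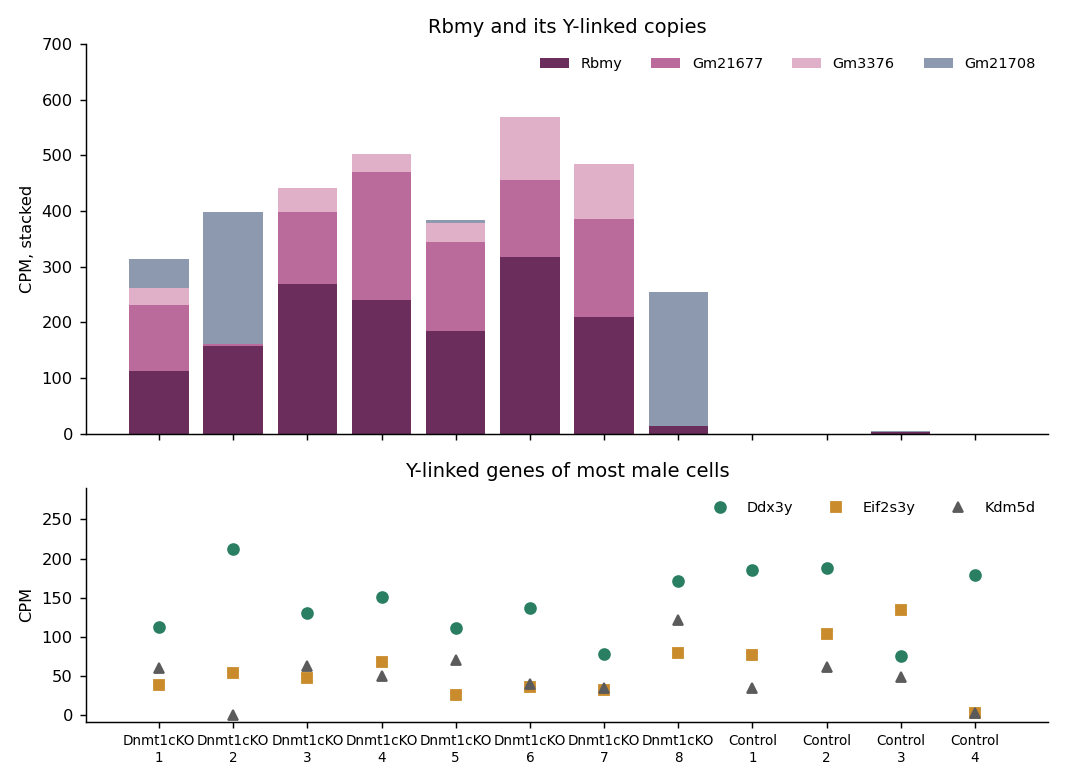
Top, CPM of Rbmy and 3 Y-linked copies, stacked, in each library; bottom, CPM of 3 Y-linked genes of male cells in the same libraries. The stacked total reaches 255.0 to 568.5 CPM in all 8 Dnmt1cKO libraries although Gm21708 replaces the Rbmy row in Dnmt1cKO 8, and Ddx3y is present in both groups.

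Stk31 and Rnf17 both encode Tudor-domain proteins of male germ cells, and both had their lowest Dnmt1cKO level in Dnmt1cKO 8. Stk31 (chromosome 6, 49395604 to 49469501) stood at 0.570 CPM at the lowest, 9.95 CPM at the median and 15.7 CPM at the highest in Dnmt1cKO, and had no count in any Control. It rose at least 42.7-fold, against a floor of 3 counts over all Controls, with adjusted p = 0.0278 (edgeR, Benjamini-Hochberg), and at least 15.5-fold against the floor without Control 1, which holds most Control reads. The call was lost without the library labelled Control 4 (adjusted p = 0.0690) and without Dnmt1cKO 1, 5 or 7 (0.0517 to 0.0524), in the same edgeR test. Rnf17 (chromosome 14, 56402581 to 56525032) stood at 0.285 CPM at the lowest, 21.1 CPM at the median and 50.3 CPM at the highest in Dnmt1cKO, against 6.02, 0.337, 0 and 0 CPM in Control 1 to 4. Its groups overlapped through Dnmt1cKO 8, with a single count, and Control 1, with 49 counts, and the other 7 Dnmt1cKO libraries lay above every Control. The log2 fold change of 3.39 ± 1.30 (SE) was not called (edgeR, Benjamini-Hochberg adjusted p = 0.158), and was 6.64 without Control 1 (adjusted p = 0.0264). The value of 6.64 rests on a single Control count, in Control 2.

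Meioc, the partner of YTHDC2 in the control of meiotic RNA (chromosome 11, 102663716 to 102682237), was detected in 5 of 8 Dnmt1cKO libraries, with a highest level of 5.89 CPM and a median of 1.19 CPM, and in 0 of 4 Controls. It was at least 8.25-fold higher against the floor (3.0 without Control 1), and was not called (edgeR, Benjamini-Hochberg adjusted p = 0.217). In Control 3 and the library labelled Control 4, 3 counts stand for 2.26 and 8.53 CPM, so a difference of this size was not detectable there.

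Among the Tex genes, Tex19.1 had the steadiest rise. It protects germ cells and the placenta against mobile elements (chromosome 11, 121146143 to 121148319, plus strand). It stood at 61.5 CPM at the lowest, 89.2 CPM at the median and 107 CPM at the highest in Dnmt1cKO, against 0.246, 1.01, 0.754 and 0 CPM in Control 1 to 4. The groups were far apart, and no Control held more than 3 counts of it. The means of 87.7 ± 13.3 CPM in Dnmt1cKO and 0.503 ± 0.462 CPM in Control (SD, n = 8 and 4) gave 7.25 ± 0.98 (SE) as the log2 fold change, with an adjusted p of 3.05e-05 in edgeR. The fold was 153 with all libraries and 242 without Control 2, which left 2 counts in Control 1 and 1 count in Control 3. The SD in Dnmt1cKO, 15.2% of the mean, was the lowest of the 10 genes.

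Tex11 is an X-linked gene of meiotic recombination (chromosome X, 100838648 to 101059667, minus strand). It stood at 20.6 CPM at the lowest, 35.2 CPM at the median and 58.5 CPM at the highest in Dnmt1cKO, against 3.93, 0.337, 0 and 0 CPM in Control 1 to 4. The groups did not overlap, and Dnmt1cKO 8 held the highest level. In edgeR the log2 fold change was 4.62 ± 1.13 (SE; adjusted p = 0.0205), or 7.40 without Control 1, which held 32 of the 33 Control counts. The value of 7.40 thus rests on a single Control count, in Control 2. Without both Control 3 and the library labelled Control 4 the adjusted p in edgeR was 0.0599.

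Tex15, which acts in meiotic recombination and in the silencing of mobile elements in male germ cells (chromosome 8, 33516738 to 33585582), overlapped between the groups. It stood at 1.14 CPM at the lowest, 23.1 CPM at the median and 53.6 CPM at the highest in Dnmt1cKO, against 0.246, 18.5, 0.754 and 0 CPM in Control 1 to 4. Control 2 lay above 3 Dnmt1cKO libraries, and the values of the other Controls lay below all 8. The lowest of the 8 rests on 4 counts, in Dnmt1cKO 8. A single count stands for 2.84 CPM in the library labelled Control 4, and that of Control 3 has a counting interval up to 4.20 CPM. These 2 Controls therefore cannot be placed below Dnmt1cKO 8. The log2 fold change of 2.24 ± 1.17 (SE) was not called (edgeR, Benjamini-Hochberg adjusted p = 0.318), and was 6.06 without Control 2 (adjusted p = 0.0278). The value of 6.06 rests on 2 counts in Control 1 and 1 count in Control 3.

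Tex101 encodes a surface glycoprotein of germ cells and sperm (chromosome 7, 24668007 to 24676675, minus strand). It ranged from 0 CPM in Dnmt1cKO 2 to 43.4 CPM in Dnmt1cKO 8, with a median of 5.17 CPM, and had no count in Control. It was at least 29.6-fold higher against the floor (10.7 without Control 1) and missed the threshold (edgeR, Benjamini-Hochberg adjusted p = 0.0578), passing it without Dnmt1cKO 2 (0.0318) and with RLE scaling (0.0429). Tex14, which keeps open the bridges between dividing germ cells (chromosome 11, 87405065 to 87555823), was the only gene of the 10 below the filter. It stood at 4.16, 5.26 and 6.59 CPM in Dnmt1cKO 3, 4 and 6, at 0 to 0.365 CPM in the other 5 Dnmt1cKO libraries, and at 0 in every Control. Its pooled level was at least 10.01-fold higher against the floor (3.64 without Control 1). The mean log2(CPM + 2) differed by 0.75, and a two-sided exact permutation test gave p = 0.121.

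**Figure D4:**
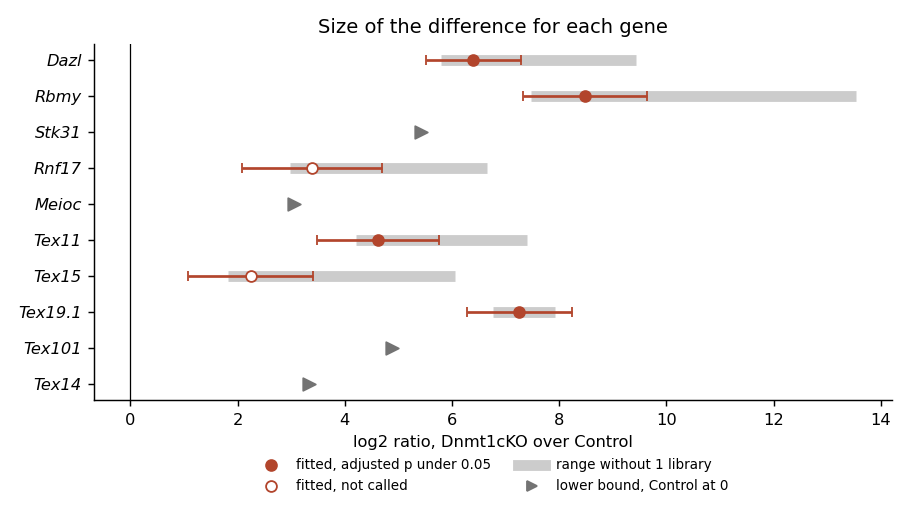
Log2 ratio of Dnmt1cKO over Control (x axis) for each gene (y axis); circles are edgeR values with SE, filled where called, with grey bands that span the values without each library in turn, and triangles, drawn without a band, are lower bounds for genes with no Control count. The bands of Rbmy, Dazl, Tex11, Rnf17 and Tex15 reach far to the right, and that of Tex19.1, 6.76 to 7.92, is the narrowest of those drawn.

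Counts in Control came from different libraries for different genes. Control 1 held 49 of the 50 Control counts of Rnf17 and 32 of the 33 of Tex11, Control 2 held 55 of the 58 of Tex15, and Control 3 held 12 of the 15 of Dazl. The library labelled Control 4 held none of any of the 10 genes. In Dnmt1cKO, the genes at 0 were Meioc in Dnmt1cKO 1, 2 and 8, Tex14 in Dnmt1cKO 2, 5 and 7 and Tex101 in Dnmt1cKO 2, while Dazl, Rbmy, Stk31, Rnf17, Tex11, Tex15 and Tex19.1 had a count in all 8. Dnmt1cKO 8 had at most 3 counts for 4 of the genes, Stk31, Rnf17, Meioc and Tex14, and 15.9% of all genes tested stood that low in it.

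Per kilobase of the longest annotated transcript, the levels in Dnmt1cKO spanned a wide range. Rbmy averaged 110 ± 55.8 CPM per kb, Dazl 64.7 ± 13.2 and Tex19.1 50.3 ± 7.65 (SD, n = 8). Tex11 followed at 11.0 ± 3.78 CPM per kb, below Tex19.1 in 8 of 8 libraries and without overlap. Tex101 (8.85 ± 13.5), Rnf17 (3.96 ± 2.76), Stk31 (3.04 ± 1.48) and Tex15 (2.99 ± 2.0) came next, with ranges that overlap between neighbours, and Tex14 (0.437 ± 0.583) and Meioc (0.368 ± 0.449) were lowest. Dazl was above Tex19.1 in 8 of 8 libraries although their ranges overlap, and the place of Rbmy rests on a row whose reads are shared with its copies. In Dnmt1cKO 8 Rbmy stood at 7.73 CPM per kb, below Tex11 at 17.8 and Tex101 at 40.9. Without that library, an alternative added after its values were seen, Tex101 averaged 4.26 ± 4.10 CPM per kb, below Rnf17 at 4.51 ± 2.45 (SD, n = 7).

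The sample descriptions also hold a code such as b4, with no word on what it stands for, and codes 4, 5, 6 and 7 occur in both groups, with 1 Control each and with 1, 1, 1 and 3 Dnmt1cKO libraries. Within these codes 10, 10, 9 and 10 of the 10 genes were higher in Dnmt1cKO than in Control by log2(CPM + 2), and Tex14 in code 6 was at 0 in both groups. Of all genes tested, 48.5%, 56.0%, 64.7% and 78.3% were higher in the same codes. Part of this order was fixed in advance, as a gene at 0 in Control cannot be lower in Dnmt1cKO. No Control held a count of 4 of the 10 genes, and the library labelled Control 4, of code 7, held none of the 10. Within codes 4 to 7 the difference was 6.83, 6.16, 4.07 and 6.68 for Dazl, and 5.60, 4.96, 5.18 and 5.49 for Tex19.1, so both were far higher in each code. Tex15 differed by 4.63, 0.38, 3.82 and 2.33, with the small value in code 5, that of Control 2.

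Over the whole table, 28 rows carry a Tex symbol, 5 of them described above and 23 others, and 13 of the 23 had no count in any library. Of the 9 others tested, 1 rose and 0 fell in edgeR, where 1.03% of all genes tested were called higher and 1.55% lower. With p left unadjusted 2 were higher and 0 lower, DESeq2 called 2 and 0 and limma-voom 0 and 0, and their median log2 fold change was 1.18. The gene that rose was Tex13, at 33.0 ± 24.0 CPM in Dnmt1cKO and 0.588 ± 0.761 CPM in Control (SD, n = 8 and 4), with 8 of 8 Dnmt1cKO libraries above every Control. Its log2 fold change was 5.38 ± 1.26 (SE; edgeR, adjusted p = 0.0155), and 6.96 without Control 1, which left a single Control count, in Control 3. Without Control 3 and the library labelled Control 4 it was not called (adjusted p = 0.102 in edgeR). Tex19.2, a related neighbour of Tex19.1 whose expected counts are fractional, so that reads may be shared, stood at 5.93 ± 3.27 CPM in Dnmt1cKO with no count in Control, at least 28.5-fold higher (10.4 without Control 1). It was not called (adjusted p = 0.0698 in edgeR), and passed without Dnmt1cKO 8, where it had no count (0.0399). Tex261 had ordinary levels in both groups, 31.1 ± 11.0 CPM in Dnmt1cKO and 46.9 ± 29.2 CPM in Control (SD, n = 8 and 4), and was not called (adjusted p = 0.727 in edgeR). The Tex symbol thus covered genes with no count in either group, genes present in both and genes with few or no counts outside Dnmt1cKO.

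**Figure D5:**
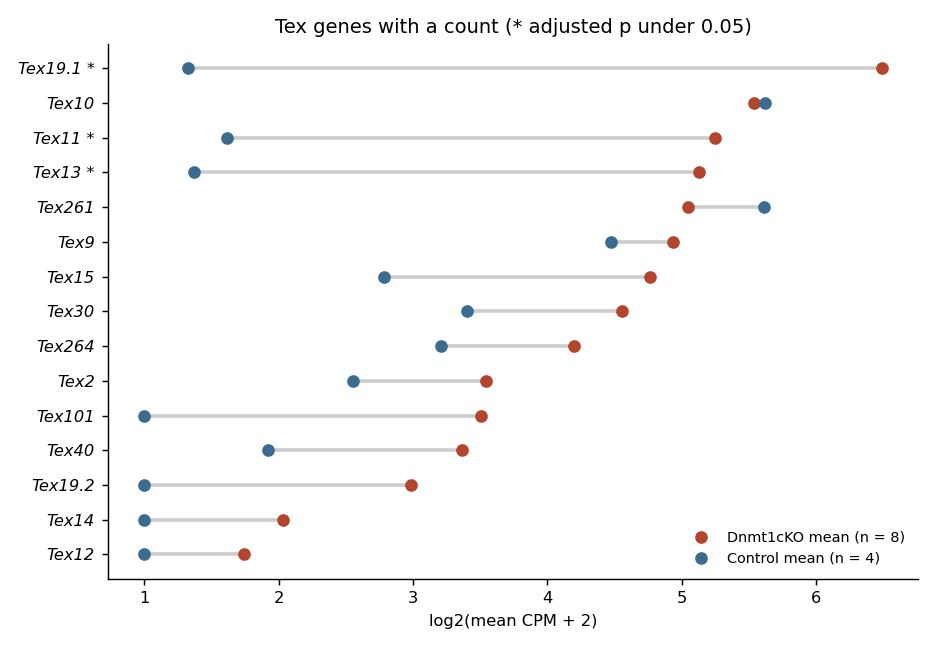
Mean level of each of the 15 Tex genes with a count, as log2(mean CPM + 2) (x axis), in Dnmt1cKO (red) and Control (blue); an asterisk marks genes called higher. Tex19.1, Tex11 and Tex13 have the asterisk, and Tex261 stands high in both groups.

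A list of 24 other germ cell RNA-binding genes, drawn up with earlier results of these data known, had 23 rows and 12 genes tested, of which 3 rose and 0 fell in edgeR. With p left unadjusted 4 were higher and 2 lower, while limma-voom called 0 and DESeq2 3 higher and 2 lower. Over all genes tested, edgeR called 1.03% higher and 1.55% lower, and DESeq2 3.82% and 8.07%. With p left unadjusted these shares were 8.19% and 9.54% in edgeR. Ddx4, the RNA helicase known as Vasa, stood at 0 to 40.5 CPM in Dnmt1cKO with a median of 29.8 CPM and had no count in Control, at least 124-fold higher (45.1 without Control 1; adjusted p = 0.00805 in edgeR). Its zero was in Dnmt1cKO 2, and the other 7 libraries began at 7.70 CPM. Mael is an RNA-granule protein gene of the piRNA pathway. It averaged 18.6 ± 10.8 CPM in Dnmt1cKO (SD, n = 8), with its lowest value, 0.570 CPM, in Dnmt1cKO 8, and had a single count in Control, which lay in Control 3. The ratio was 240.0 (95% counting interval 43.0 to 9485; adjusted p = 0.0236 in edgeR), and the call was lost without the library labelled Control 4 (0.0719) and without Dnmt1cKO 3 (0.0524). Rbm44 encodes an RNA-binding protein of germ cells. All 8 Dnmt1cKO libraries held it and no Control did, so that it was at least 28.5-fold higher (10.4 without Control 1; adjusted p = 0.0341 in edgeR). Its call was lost without the library labelled Control 4 and without Dnmt1cKO 1, 3, 4, 5 or 7, with adjusted p up to 0.0775. Without both Control 3 and the library labelled Control 4, Ddx4, Mael and Rbm44 had adjusted p of 0.0995, 0.0639 and 0.170 in edgeR. The list's median log2 fold change was 1.53.

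Tudor-domain genes of germ cells had 1 of 10 tested members called higher and 0 lower in edgeR, with a median log2 fold change of 1.37. The gene called was Stk31, already among the genes followed here, so the list adds no further call. With p left unadjusted 4 were higher and 0 lower, DESeq2 called 2 and 0 and limma-voom 0 and 0. Genes whose products bind or work with the 10 proteins had 0 of 13 tested members called in edgeR, with a median log2 fold change of 0.87. With p left unadjusted 3 of them were higher and 1 lower, where 8.19% and 9.54% of all genes tested stood. The 3 higher were Tex19.2, Sycp2 and Morc1, which had no count in Control and were at least 28.5, 13.9 and 15.5-fold higher against the floor. The gene that was lower was Dazap1. Among the 13 tested, limma-voom called 0 and DESeq2 1 higher and 2 lower, with 3.82% and 8.07% of all genes in DESeq2. Ythdc2, the partner of MEIOC, stood at 23.1 ± 8.34 CPM in Dnmt1cKO and 12.1 ± 13.6 CPM in Control (SD, n = 8 and 4; adjusted p = 0.693 in edgeR). Ubr2, a ubiquitin ligase that binds TEX19.1, stood at 52.4 ± 20.96 CPM in Dnmt1cKO and 22.9 ± 25.6 CPM in Control (adjusted p = 0.515 in edgeR). Ythdc2 had counts in 3 of the 4 Controls and Ubr2 in 4 of 4.

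Of 18 germ cell identity genes, 5 had no count in any of the 12 libraries: Pou5f1, Dppa3, Nanos2, Prdm14 and Utf1. Another 5 were below the filter, with counts in Dnmt1cKO and 0 in Control: Sall4 with 89 counts in 5 of 8 Dnmt1cKO libraries, Dppa5a with 104 in 5, Dnd1 with 91 in 3, Lin28a with 40 in 3 and Nanos3 with 14 in 3. The other 8 were tested and 1, Ddx4, was called. Of these 8, Nanog was detected in 7 Dnmt1cKO libraries, up to 54.97 CPM, and in 3 Controls, up to 11.53 CPM. Prdm1 was detected in 7 Dnmt1cKO libraries, up to 6.27 CPM, and in 1 Control, at 1.84 CPM. Alpl was detected in 7 Dnmt1cKO libraries, up to 31.43 CPM, and in 2 Controls, up to 19.79 CPM. The summed level of the 18 was 145 to 244 CPM in Dnmt1cKO and 25.6 to 215 CPM in Control, and included Kit, Tfap2c, Sox2 and Ifitm3, which other tissues also express. Gonad somatic markers had 8 of 12 genes, Amh, Foxl2 and Nr5a1 among them, at 0 in every library, and late spermatid genes had 10 of 12, Prm1, Prm2, Tnp1 and Tnp2 among them. Each of these lists had 1 gene tested, and neither was called in edgeR. Sox9 of the gonad list stood at 138 ± 40.1 CPM in Dnmt1cKO and 211 ± 162 CPM in Control. Odf2 of the spermatid list stood at 146 ± 50.5 CPM and 168 ± 120 CPM (SD, n = 8 and 4).

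Among 12286 of the genes tested, with an average log2 CPM of 1 or more and the 10 genes left out, the 5 whose profile over the 12 libraries was closest to that of Dazl were Psg23, A430078G23Rik, Rhox6, Tuba3b and Taf7l. Closeness was the root mean square difference of log2(CPM + 2) after each gene was centred on its own mean, and was 0.62 to 0.74 on the log2 scale for these 5. Tex19.1 had a value of 0.65, Rbmy 1.17, Tex11 1.32 and the other genes of the 10 tested 1.92 to 2.55. Rhox6 is an X-linked homeobox gene of germ cells and placenta, Tuba3b a tubulin gene of testis and Taf7l a gene for a testis subunit of TFIID, and Psg23, Rhox6 and Tuba3b belong to families of similar genes that may share reads. Taf7l stood at 274.9 ± 83.5 CPM in Dnmt1cKO and 0.257 ± 0.370 CPM in Control, and Psg23 at 174 ± 106 CPM and 1.37 ± 2.02 CPM (SD, n = 8 and 4). With a pseudocount of 0.5 in place of 2, 3 of the 5 stayed, Rhox6, Psg23 and Tuba3b.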

How the data were processed

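RNA sequencing of 8 Dnmt1cKO and 4 Control libraries was analysed from the deposited table of expected counts, which the authors estimated with RSEM and which divide a read among the genes it fits. The submitters' processing notes name bcl2fastq (2.17.1.14), Bowtie (0.12.9), RSEM (1.2.3) and build mm10. Trimming, strandedness and gene models are not stated, so near-identical copies and overlapping genes are uncertain. In the table, 38.5% of genes had a fractional value, and 8 columns with no header held stray text and were left out.

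Counts were rounded and tested in R (4.3.3) with edgeR (4.0.16): quasi-likelihood fit with robust dispersion, genotype alone in the model, TMM scaling, and filterByExpr (minimum count 10, minimum total 15). Benjamini-Hochberg adjustment ran over 12761 genes, with calls at an adjusted p under 0.05. Each SE was derived from the F statistic. CPM use TMM-effective library sizes. Ratios against a group at 0 are lower bounds from pooled counts, with a floor of 3 counts over the group. Against 1 to 3 counts over all Controls the exact 95% interval is given. Values from fits without a library have no such bound or interval. Floors and intervals cover counting error only, as no molecular identifiers are mentioned. DESeq2 (1.42.0) and limma (3.58.1, voom with quality weights) served as alternatives. Tex14, below the filter, had an exact permutation test. Coordinates and transcript lengths are from GENCODE M21 and promoters from RefSeq GRCm38.p6, the build that mm10 names. When tested on simulated data with known changes, the fit missed most of them, so a gene that was not called is not shown to be unchanged.

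The 10 genes, the lists and the alternatives were chosen with earlier results of these data known. Genes named were the 10, Dnmt1, up to 4 called genes of each list and the 5 nearest to Dazl. Ddx3y, Zfy1, Sry, Uba1y, Tex19.2, Tex261, Ythdc2, Ubr2, Sycp2, Morc1, Dazap1 and the germ cell, gonad and spermatid markers given by name were chosen after their values were seen.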

Additional observations from a re-analysis of the deposited data

Results flagged for a closer look

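In 8 of the 20 groups of libraries examined, a single library stood apart from the others of its group on the log2(CPM + 2) scale. The criterion was the 95% critical value of Dixon's test, which by its definition chance passes in about 1 in 20 groups of normally distributed values. No chance rate was measured in these data, where a group with most libraries at 0 meets the criterion through 1 library with counts. In Dnmt1cKO, replicate 8 was far below the others for Rbmy, at 3.93 (13.2 CPM), and for Stk31, at 1.36 (0.570 CPM). For the 4 Rbmy copies together this replicate did not stand apart, at 255.0 CPM.

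In Control, replicate 3 was far above the other Controls for Dazl, at 3.47 (9.05 CPM), for the Rbmy row, at 2.23 (2.68 CPM), and for all Rbmy copies, at 2.60 (4.06 CPM). Control 1 stood apart for Rnf17, at 3.0 (6.02 CPM), and for Tex11, at 2.57 (3.93 CPM). Control 2 stood apart for Tex15, at 4.36 (18.5 CPM). Why these libraries stood apart was not tested.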

How the results depend on the processing

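Of the 10 genes 5 were called higher and 0 lower, beside 132 genes higher and 198 lower in all. RLE scaling gave 726 lower in all and library totals alone 47. DESeq2 gave 487 higher and 1030 lower, and limma-voom 8 higher and 31 lower with 2 of the 10 genes called. Without Control 3 and the library labelled Control 4, 45 were higher and 2 lower, with 3 of the 10. Leaving out each library in turn gave 60 to 657 higher, 36 to 494 lower and 4 to 6 of the 10. The cause of these shifts was not tested. Of all called genes 40.0% were higher, against 19.0% with RLE scaling and 70.6% with library totals. The median log2 fold change of all genes was 0.22, 0.07 with RLE scaling and 0.38 with library totals.

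With the title number as a replicate block, 21 genes were higher and 29 lower, with 3 of the 10 called, Dazl, Rbmy and Tex19.1. Dnmt1cKO 5, 6, 7 and 8, whose numbers no Control has, were left out of that fit, and 7 of the 10 genes were tested. With the b code as a block 137 were higher and 84 lower, with 4 of the 10 called. Stk31 (adjusted p = 0.0577 in edgeR), Rbm44 (0.116) and Uba1y (0.168) were not. Dnmt1cKO 1 and 2, whose codes no Control has, were left out of this fit. In both fits the block and the smaller set of libraries cannot be told apart. Same-numbered libraries had correlations of -0.06 to 0.06 between their deviations, so the number is only a name here.

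Dazl and Tex19.1 were called in 23 of 23 alternatives, Rbmy in 22, Tex11 in 20 and Stk31 in 15, and each kept its direction. Ddx3y turned to 0.0439 with library totals and Tex261 to 0.22 without Control 3 and the library labelled Control 4. Depth limits what can be said of Meioc and Tex14, whose levels in Dnmt1cKO lie under 3 counts in the library labelled Control 4.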
